A study of Mus musculus with 18 samples.

Results

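The regions described here are H3K9me3 peaks whose nearest annotated start site belongs to a cytokine, chemokine, interferon or TNF family gene, or to a receptor of that kind. Members were chosen by the gene name that the deposited annotation gives each peak: symbols that begin with Il, Ccr, Cxcr, Ccl or Cxcl and a digit, or with Tnfsf, Tnfrsf or Ifn. The rule uses names alone, though it was set with earlier results of these data known. The rule took 1386 of 375410 peaks over 4 lists and named 124 genes. Another 71 genes with such symbols had a value in the RNA table and no peak in any list, so 195 genes are accounted for in all.

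The study set G9a (Ehmt2) knockout mouse CD8 T cells against wild type, in C57BL/6 animals. H3K9me3 was measured by native ChIP-seq, with micrococcal nuclease in place of cross-linking and sonication, in splenic CD8 T cells cultured with antibodies to CD3 and CD28: Ehmt2-/- cells (KO, 2 libraries) and Ehmt2+/+ cells (WT, 2 libraries). RNA was measured in other cells, taken from spleen and lymph nodes after 4 weeks of expansion in a lymphopenic environment: CD4+CD8+ G9a KO cells (KO DP, 4 libraries), CD4-CD8+ G9a KO cells (KO SP, 2 libraries) and CD4-CD8+ G9a WT cells (WT SP, 4 libraries). The sources used here give neither the hosts nor the means of deletion, and nothing in the labels says that the libraries of a group came from separate animals. The chromatin and the RNA were thus never read in the same cells, and values of both stand side by side below without being joined in a test.

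H3K9me3 is the methylation mark of constitutive heterochromatin; it lies on satellites, transposons and large silent gene clusters and is bound by HP1 proteins. G9a, with its partner GLP, mainly places the mono- and dimethyl forms on the same lysine, while SETDB1 and the SUV39H enzymes place the trimethyl form. Interleukins, chemokines, interferons and TNF ligands are secreted or membrane-bound signals of immune cells, and each helper T cell lineage keeps its own set of these genes, and of their receptors, open or closed.

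Of the 1386 peaks, 6 had their centre within 1 kb of a start site. The 2 promoters shown are those of the reference table that such a peak overlaps. Each is the 250 bases before the start site (RefSeq, GRCm38.p6, minus strand, chr4:88644460-88644709 for Ifna13 and chr6:67491856-67492105 for Il23r), written from 5′ to 3′ with every CG in capitals.
Ifna13: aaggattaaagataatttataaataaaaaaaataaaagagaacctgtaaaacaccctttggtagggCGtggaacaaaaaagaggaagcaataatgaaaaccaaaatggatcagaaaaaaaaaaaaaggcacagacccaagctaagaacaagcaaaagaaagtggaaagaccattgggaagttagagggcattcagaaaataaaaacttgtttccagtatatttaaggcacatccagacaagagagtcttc
Il23r: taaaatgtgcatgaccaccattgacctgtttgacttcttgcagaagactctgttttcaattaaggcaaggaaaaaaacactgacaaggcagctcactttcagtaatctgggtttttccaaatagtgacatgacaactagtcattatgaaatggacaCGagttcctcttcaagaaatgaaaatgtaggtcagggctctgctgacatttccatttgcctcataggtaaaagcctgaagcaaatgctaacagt

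Each of these promoters holds 1 CG. Over all 32851 promoters of the table the median was 6 CG and 92.1% held at least 1. The Ifna13 window holds TATAAA on each strand, a motif that 12.4% of all promoters hold. The 2 copies overlap in 1 site, tttataaa, which lies near the 5′ end of the window and far from the start site. TGANTCA, held by 6.75% of all promoters, matched neither window on either strand. Ifna13, a type I interferon gene, had its promoter peak in KO replicate 1, where it covered 205 of the 250 bases and stood at percentile 86.9 of the list by score. Il23r, the receptor for the Th17-maintaining cytokine IL-23, had such a peak in KO replicate 2 (percentile 27.4) and in WT replicate 1 (percentile 65.1), with centres at -484 and -554 bases. These covered no more than 17 and 26 bases of the printed window. The other promoter peaks lay near Ifne in KO replicate 2 (centre at -943 bases), near Ccr1 in WT replicate 2 (centre at -745 bases), and across the 5′ end of Tnfrsf11b, the osteoprotegerin gene, in WT replicate 1.

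The list lengths set much of what follows. The KO lists held 111149 and 154997 peaks, against 85960 and 23304 in the WT lists, and the WT replicate 2 list stood apart by its length. Peak scores within a list were whole multiples of a step, 0.485 and 0.466 in the KO lists, against 0.541 and 1.58 in the WT lists. Scores are therefore given below as percentiles of the list they come from. The authors called peaks in each library on its own, and the 4 input libraries were not analysed here.

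Peaks nearest to cytokine and receptor genes made up 0.308% and 0.297% of the KO lists (342 and 460 peaks), against 0.465% and 0.790% of the WT lists (400 and 184 peaks). Both KO shares lay below both WT shares. The difference of the means was -0.325 percentage points (two-sided exact permutation test, p = 0.333, the smallest that 2 against 2 libraries allow). Peaks near zinc finger (Zfp) genes, a gene class rich in this mark, made up 1.01% and 0.946% of the KO lists against 1.29% and 1.94% of the WT lists. Peaks near olfactory and vomeronasal receptors went the other way, with 2.15% and 2.25% in KO against 2.02% and 1.43% in WT. A smaller share of the KO lists lay close to any gene. Within 10 kb of a start site lay 7.81% and 7.51% of all their peaks, against 11% and 16.4% in WT. In number these were 8684 and 11639 peaks in KO, against 9453 and 3832 in WT. Among those close peaks alone, members made up 0.633% and 0.593% in KO and 0.825% and 1.33% in WT, again without overlap between the groups. Without WT replicate 2 the difference in the share of the whole list was -0.163 points.

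Member peaks ranked high in every list. Their median score percentile was 71.5 and 63.2 in KO and 65.1 and 75.8 in WT, so the groups overlapped (difference of the means -3.14, exact permutation p = 0.667), and the sign of that difference turned in some alternatives. Against the peaks of all other genes in the same list, the median was higher in 4 of 4 libraries, by 17.7 ± 4.45 percentile points (SD, n = 4 libraries; exact sign-flip permutation p = 0.125, the smallest possible). The same gap was 17.5 points among peaks within 100 kb of a start site and 17.8 among peaks within 10 kb. Peaks in the top decile of their list by score made up 22.5% of member peaks and 9.94% of the others, as means over libraries. High ranks were shared in part by Zfp peaks, with a median percentile of 61.3 against 68.9 for members and 19.0% in the top decile. Peaks near olfactory and vomeronasal receptors had 42.6 and 5.15%.

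**Figure D1:**
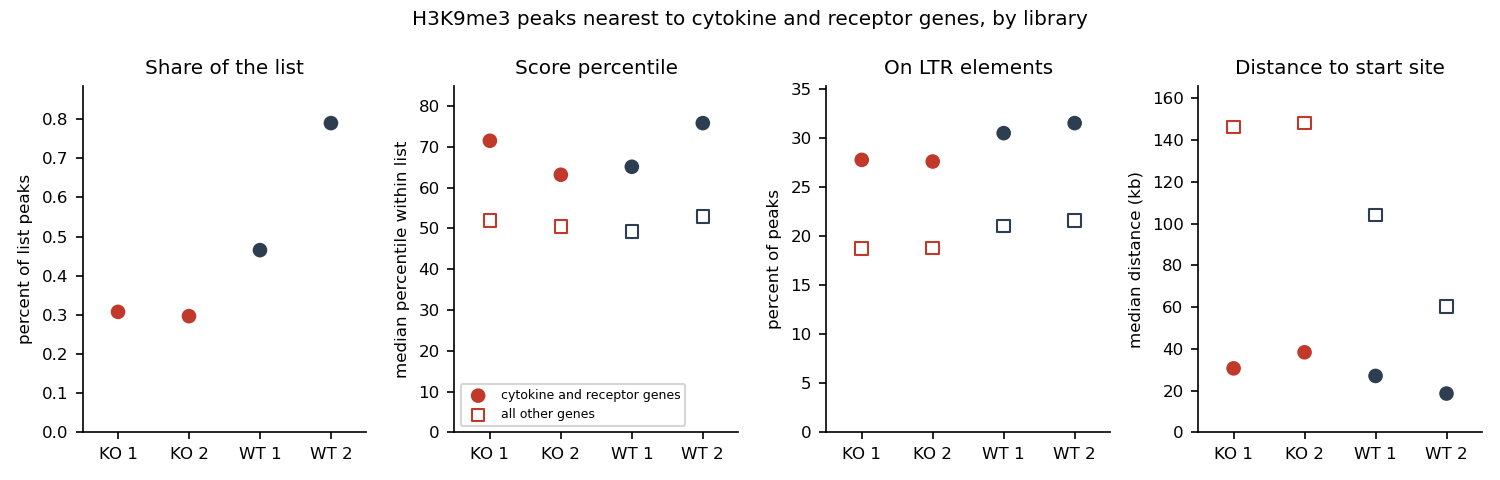
Each point is 1 H3K9me3 library (KO in red, WT in dark blue); the panels give the share of the list taken by member peaks in percent, the median score percentile within the list, the percent of peaks on LTR elements and the median distance to the start site in kb. Filled circles are peaks of cytokine and receptor genes and open squares those of all other genes: the circles lie above the squares for percentile and LTR share and below them for distance in 4 of 4 libraries.

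Member peaks lay on long terminal repeat (LTR) retrotransposons more often than other peaks did. The share was 27.8% and 27.6% in KO and 30.5% and 31.5% in WT; among other genes' peaks it was 18.7% and 18.8% in KO and 21.1% and 21.6% in WT. The gap was 9.31 ± 0.493 percentage points (SD, n = 4 libraries; higher in 4 of 4; exact sign-flip permutation p = 0.125). Most of it came from MaLR elements, which are old, non-coding mammalian LTR transposons: 16.4% of member peaks against 8.66% of other peaks, higher in 4 of 4 libraries. ERVK elements, the class that includes intracisternal A particles, held 10.1% of member peaks against 7.98% of others. ERV1 elements held 1.48% against 2.11%, lower in 4 of 4 libraries. Among the compared classes, LTR elements held 24.0% of Zfp peaks and 26.0% of peaks near olfactory and vomeronasal receptors. These means over libraries lay between the 20.0% of other peaks and the 29.4% of member peaks. No member peak was annotated to a satellite repeat in any list.

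Of the 1386 member peaks, 253 (18.3%) lay within 10 kb of the start site, 839 (60.5%) between 10 and 100 kb, and 294 (21.2%) farther away. The median distance was 30.7 and 38.4 kb in KO and 27.1 and 18.6 kb in WT, and 28.7 kb over the libraries against 114.7 kb for peaks of other genes. The same mean was 40.3 kb for Zfp peaks and 11.5 kb for peaks near olfactory and vomeronasal receptors. Beyond 100 kb the member peaks were led by those of Il5ra (92 peaks) and Cxcl12 (87 peaks). Peaks per gene were uneven: the median over the 124 genes was 7, 9 genes had 1 peak, and Cxcl12, Il5ra and Tnfrsf11b together held 293 peaks, 21.1% of the total. Cxcl12 encodes the ligand of CXCR4 that holds cells in the bone marrow. Without these 3 genes the gap to other peaks was 23.2 percentile points and 13.5 points of LTR share.

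The nearest start site is not always that of the gene a peak lies in. Il5ra encodes the alpha chain of the IL-5 receptor, and all 93 of its peaks lay in introns of Cntn4, a neighbouring gene for a neuronal contactin, between 60.9 and 313.4 kb from the Il5ra start. The peaks numbered 36 and 46 in KO, against 9 and 2 in WT. Over all members, the annotation placed 344 peaks in a transcript of some gene or at its start or end. Of these, 200 were assigned to the member's own gene and 144 to another gene.

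By role, interleukin receptors had the most peaks (374 over the 4 lists, for 33 of 40 genes), followed by chemokines (259, for 18 of 37 genes), interleukins (250, for 27 of 42), TNF receptors (155, for 13 of 20), chemokine receptors (149, for 13 of 18), TNF ligands (91, for 8 of 12), interferon receptors (75, for 4 of 5) and interferons (33, for 8 of 19). These shares were not tested against each other. Classes were set by symbol, so the interleukins include Il6st, a receptor chain by function, as well as Il1bos and Il4i1. Per 10000 peaks of the list, chemokine receptors had 3.24 and 2.39 peaks in KO against 5.58 and 12.0 in WT, and interleukin receptors 9.27 and 7.42 in KO against 13.1 and 18.5 in WT. Chemokines had 5.49 and 6.65 in KO against 9.07 and 7.29 in WT. Interleukins had 5.31 and 5.48 in KO against 8.26 and 15.02 in WT. The KO values lay below the WT values in 7 of the 8 classes, as in the members as a whole; the groups overlapped for TNF receptors, with 3.24 and 4.26 in KO against 3.84 and 8.58 in WT.

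Of the 124 genes, 80 had a peak in all 4 lists. These include Il2, Il4, Il6, Il9, Il10, Il17f, Il21, Ifng and the receptors Il2ra, Il2rb, Il7r, Il12rb2, Il18r1, Ifngr1, Ccr4, Ccr6, Ccr7, Ccr8, Ccr9, Cxcr3, Cxcr4 and Cxcr5. A peak in both KO lists and in neither WT list was found for Ccl9, Ifnlr1 (the lambda interferon receptor), Il1f6 and Il3, and the reverse only for Ifnk, an interferon of the skin. The KO lists are longer than the WT lists, and the share of all genes with these patterns was not counted. Among genes without any peak were Il5, Il22, Ccl4, Il2rg, Tnfrsf4 (OX40), Tnfrsf18 (GITR) as well as Ccl2, Ccl7, Ccl8 and Ccl12.

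**Figure D2:**
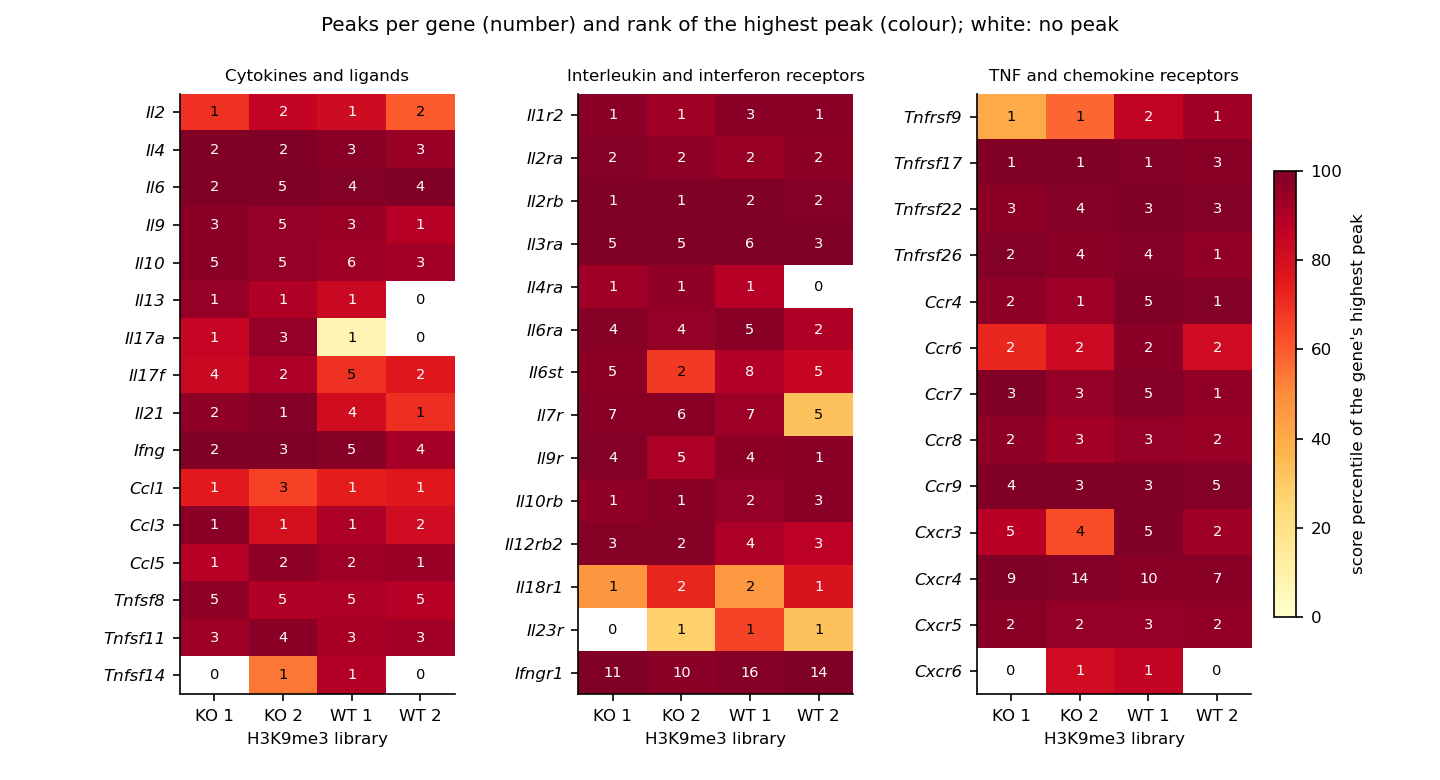
Rows are named members by class, columns the 4 H3K9me3 libraries; the number in a cell is the count of peaks nearest to the gene, and the colour the score percentile (0 to 100) of the highest of them within its list. Il4, Il2rb, Il3ra, Ifngr1, Ccr9 and Cxcr4 are dark in all 4 columns, whereas Il13, Il17a and Il4ra have no peak in WT replicate 2 and Il23r none in KO replicate 1.

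Peaks per gene were tested as the number per 10000 list peaks over the 6082 genes with at least 8 peaks in all lists together. No gene was called by limma after Benjamini-Hochberg adjustment (0 of 55 members tested; percent called over all genes 0), and 949 genes (15.6%) had an unadjusted p under 0.05. Of the members, 6 (10.9%) did: Il5ra and Cxcl13 with more peaks in KO, and Ifngr1, Il6st, Ifng and Il20ra with fewer. Cxcl13, the B cell follicle chemokine, had 1.26 and 1.03 peaks per 10000 in KO against 0.582 and 0 in WT. Ifngr1, the ligand-binding chain of the interferon gamma receptor, had 0.990 and 0.645 in KO against 1.86 and 6.01 in WT (log2 difference -1.59 ± 0.52, limma adjusted p = 0.296). Both groups kept apart in each of these genes, but no call resulted. Over the 55 members the KO values lay wholly below the WT values in 38 (69.1%, against 40.1% of all genes tested) and wholly above in 3 (Cxcl13, Il5ra and Tnfrsf19; 5.45%, against 23.7%). The median log2 difference was -0.61 for members and -0.20 for all genes. Leaving out a WT list leaves 1 WT library and takes the spread from the 2 KO lists alone (1 residual degree of freedom). The lone WT list is then assumed to vary as they do. Genes were called in those fits, members and others, but these calls rest on that assumption and are not read as a result.

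Overlapping peaks of the 4 lists were joined into regions. Of 757 member regions, 102 (13.5%) had a peak in all 4 lists, against 3.03% of the regions of other genes. In these shared regions the score was compared after centring each library on its median. Limma called 2 of 7643 shared regions (0.0262%), and none of them near a member (0 of 102). An unadjusted p under 0.05 was reached by 6 member regions (5.88%) and by 9.94% of all, and the 6 were all lower in KO. The sign was negative in 62.7% of member regions and in 56.4% of all, with a median log2 difference of -0.21 for members and -0.11 for all. These fits were added after the peak lists had been seen.

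Among the cytokines, Il4, the defining Th2 interleukin, had the strongest shared region 6.0 kb downstream of its start (mm9 chr11:53423859-53425656), on an LTR of the MaLR family. It stood at percentiles 99.8 and 99.6 in KO, against 97.9 and 94.9 in WT. Both groups therefore carried it near the top of the list, with KO slightly higher by rank (score log2 difference 0.68 ± 0.44, limma adjusted p = 0.629). Il13, the neighbouring Th2 gene, had a region 7.98 kb upstream at 95.1 and 89.7 in KO, against 83.6 in WT replicate 1 and none in WT replicate 2. Ifng, the Th1 and CD8 effector cytokine, had a region 21.0 kb from its start (chr10:117898841-117902307) at 99.3 and 99.4 in KO and 98.4 and 92.0 in WT.

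Il21, made by follicular helper and Th17 cells, had a region 8.5 kb upstream (chr3:37139446-37141045) at 96.1 and 98.6 in KO, against 81.2 and 69.8 in WT. The ranks did not overlap, and the score log2 difference was 1.09 ± 0.52 (limma adjusted p = 0.535). Il10 had 3 shared regions, 28.8 and 12.8 kb upstream and 17.6 kb downstream, which stood between 92.6 and 97.5 in KO and between 83.6 and 93.7 in WT. Il9 had a region 7.6 kb upstream at 97.5 and 95.5 in KO and 94.8 and 88.4 in WT. Il6 had its strongest region far away, 91.2 kb upstream on an ERVK element, at 99.5 and 99.5 in KO and 99.2 and 99.4 in WT. Il17f, a Th17 cytokine, had a region 19.2 kb downstream at 83.6 and 87.1 in KO and 69.4 and 65.5 in WT. Each of these regions of Il4, Ifng, Il21, Il10, Il9, Il6 and Il17f ranked higher in both KO lists than in both WT lists. The same order held in 37 of the 102 shared member regions (36.3%) and in 34.7% of all shared regions, and the opposite order in 9 (8.82%) and in 7.12%, so members were close to the background. Other Il17f regions did not keep it: that 21.7 kb downstream stood at 32.0 in KO replicate 1 and had no peak in KO replicate 2, against 28.5 and 75.8 in WT. The centred scores of the named regions differed by -0.77 (Il6) to 1.09 (Il21) on the log2 scale, in both directions, and none was called. A percentile depends on the length of the list; its part in the ranks was not tested.

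The highest member peak of KO replicate 1 and of both WT lists lay inside Il3ra, the IL-3 receptor alpha chain, in introns 3 to 5 (region chr14:15179155-15188661). This region stood at percentiles 99.87 and 99.37 in KO and 99.97 and 99.88 in WT. Its score was lower in KO, with a log2 difference of -2.12 ± 0.50 (limma adjusted p = 0.290). Il2rb, the IL-2 and IL-15 receptor beta chain, had a region 9.7 kb upstream (chr15:78334250-78336643) at 99.6 and 99.6 in KO and 99.4 and 98.5 in WT. A further region 5.7 kb upstream of Il2rb had no peak in either KO list, against percentiles 95.5 and 91.5 in WT. Il2ra, the high-affinity IL-2 receptor chain, had a region 9.6 kb upstream and another in its first intron, 29.8 kb downstream; the intronic one stood at 98.8 and 77.4 in KO and 94.8 and 97.2 in WT. Il12rb2, the signalling chain of the IL-12 receptor, had a region 11.3 kb upstream at 98.1 and 98.3 in KO and 90.5 and 87.5 in WT. Il1r2, the decoy receptor for IL-1, had its region 33.5 kb upstream at 97.6 and 93.2 in KO and 97.4 and 97.5 in WT. Ifngr1 had 8 regions present in all 4 lists and 3 present in both WT lists only; the strongest, 10.4 kb upstream, stood at 99.6 and 97.6 in KO and 98.6 and 99.3 in WT.

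Chemokine receptors, which direct T cells to tissues, differed among themselves. Ccr9, the gut-homing receptor, had a region at the 3′ end of the gene (chr9:123691049-123694853) at 99.8 and 99.8 in KO and 99.5 and 98.9 in WT. Ccr7, the lymph node homing receptor, had a region 18.2 kb upstream (chr11:99033541-99035595) at 92.6 and 79.6 in KO and 98.5 and 95.9 in WT, without overlap. Its score log2 difference was -1.72 ± 0.48 (limma adjusted p = 0.326). The highest Ccr7 peaks of the KO lists lay in another region 24.3 kb upstream, at 99.3 and 95.5 in KO, against 97.6 in WT replicate 1 and no peak in WT replicate 2. Cxcr3, the receptor of Th1 and effector CD8 cells, had 2 regions that were lower in KO. That 37.5 kb downstream stood at 87.7 and 50.5 in KO against 99.5 and 93.5 in WT (score log2 difference -2.46 ± 0.56, adjusted p = 0.289), and that 29.5 kb upstream at 66.8 and 57.6 in KO against 88.5 and 84.3 in WT. Ccr8 had regions 2.6 and 11 kb upstream, between 85.4 and 96.7 in KO and between 89.8 and 95.7 in WT. Cxcr5, the follicular receptor, had regions 5.3 and 22.7 kb upstream, between 77.4 and 97.9 in KO and between 85.5 and 96.1 in WT; the nearer one was annotated to a MaLR element in every list.

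Ccr6, a receptor of Th17 cells, had different peaks in the KO and WT lists. A region in its first intron, 1.3 kb from the start (chr17:8429355-8431799), had no peak in either KO list, against percentiles 97.5 and 81.6 in WT. Of all 2484 regions that were absent from both KO lists and present in both WT lists, 137 (5.52%) had a mean percentile at least as high as this one. Another Ccr6 region 4.7 kb upstream was present in all lists (71.5 and 72.3 in KO, 85.1 and 10.3 in WT), and a region 18.0 kb downstream, on a MaLR element, was in both KO lists only (13.4 and 82.6). Regions absent from KO were not tested, since no score exists there.

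**Figure D3:**
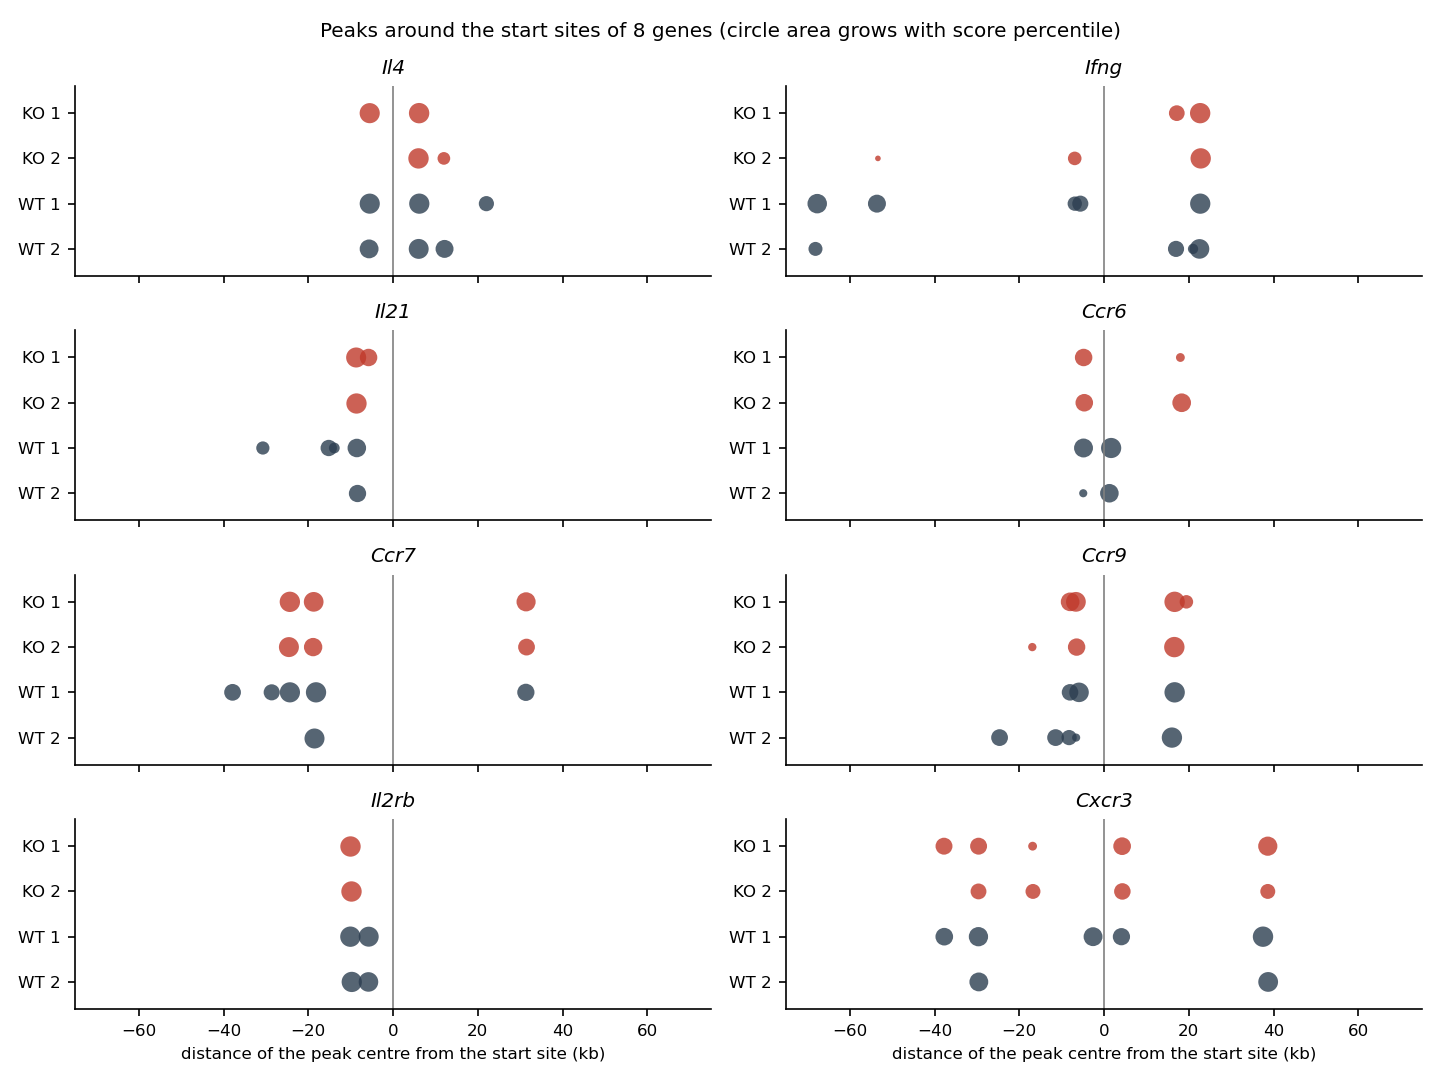
Peak centres of 8 members against the distance from their start site in kb (negative: upstream; peaks beyond 75 kb are not drawn), in 4 rows for KO 1, KO 2, WT 1 and WT 2. The area of a circle grows with the score percentile within the list; the WT circles at +1.3 and +1.7 kb of Ccr6 and at -5.7 kb of Il2rb have no counterpart in the KO rows, and those of Il4 at +6 kb and Ccr9 at +16 kb appear in all 4.

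Among TNF family genes, Tnfrsf22, a decoy receptor for TRAIL in mice, had a region 14.9 kb upstream (chr7:150849670-150853835) at 97.1 and 98.5 in KO and 99.9 and 99.1 in WT (score log2 difference -1.94 ± 0.44, adjusted p = 0.287). Tnfsf11, the ligand RANKL, had a region in its second intron, 13.4 kb from the start, at 91.5 and 97.4 in KO and 91.1 and 92.8 in WT. Tnfrsf17, the plasma cell receptor BCMA, had a region 23.3 kb upstream at 99.6 and 99.7 in KO and 99.2 and 97.7 in WT.

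Regions found in both lists of 1 genotype and in neither list of the other were counted over the genome. Both KO lists alone held 53 member regions (7.001% of 757), against 11.3% of other genes' regions, and both WT lists alone held 15 (1.98%), against 0.991%. The 15 lay near Il2rb, Ccr6, Ifngr1 (3), Tnfrsf8, Il12a, Ifng, Il6, Ifnar2, Cxcl14, Il6st, Ifnk, Tnfsf8 and Il20ra. The 53 lay near Il5ra, Cxcl12, Cxcl13 and other genes, and their median score percentile of 49.6 was lower than the 66.0 of the 15. Over all regions of the same kinds the medians were 52.8 and 55.9. The KO lists are longer than the WT lists; the part of list length in these counts was not tested.

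The RNA libraries were first checked against their labels. Cd4, the coreceptor that separates DP from SP cells, had 135, 178, 78.8 and 49.4 FPKM (fragments per kilobase of transcript, scaled to all mapped fragments) in KO DP, 0.192 and 0.222 in KO SP, and 0.144 to 0.495 in WT SP, without overlap. Ehmt2 itself had 20.9, 23.6, 12.8 and 7.28 FPKM in KO DP, 12.6 and 13.6 in KO SP, against 18.1, 42.6, 27.0 and 21.5 in WT SP; it was not absent in KO, and the deleted part was not read separately. FPKM sums were 451653, 482954, 292872 and 183632 in KO DP, 504013 and 474489 in KO SP, and 441903 to 481782 in WT SP. The low sums were those of the KO DP libraries titled 738 and 739, and their part in the differences below was not tested. The sum of 6 T cell markers was 887 to 3217 in KO DP. It was 3426 to 3654 in KO SP and 3059 to 3765 in WT SP. Sums of 6 myeloid markers were 15.8 to 173 in KO DP, 16.0 to 26.8 in KO SP and 13.5 to 130 in WT SP. Those of 4 hemoglobin and heme genes were 0.478 to 1118, 2.56 to 57.3 and 5.66 to 898 in the same order of groups, with the high values in the libraries titled 34 to 37. Sums of 4 B cell markers (20.8 to 53.5, 48.2 to 66.8 and 14.97 to 84.0), 3 NK cell markers (8.98 to 45.7, 39.8 to 52.2 and 34.3 to 78.8) and 4 dendritic cell markers (4.07 to 8.40, 14.2 to 27.2 and 6.49 to 37.4) overlapped between KO DP and WT SP. The part of other cells in the results below was not tested, and fewer cells of a type cannot be told apart from less RNA per cell.

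Of the 195 genes, 194 were in the RNA table and 84 had a mean of at least 0.5 FPKM and were tested. Genes with a peak in all 4 lists passed that filter more often (52 of 80, 65.0%) than genes with none (19 of 71, 26.8%). Their median KO DP level was 2.68 FPKM, against 0.149 FPKM for genes without a peak. Genes with a peak in 1, 2 or 3 lists were close to those without one: 40.0%, 28.6% and 26.3% passed the filter, with median KO DP levels of 0.176, 0.169 and 0.137 FPKM. These shares were not tested, the same shares over all genes were not counted, and the RNA came from cells of another origin than the ChIP.

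KO DP cells differed from WT SP cells in 29 of the 84 members by limma on log2(FPKM + 1) with Benjamini-Hochberg adjustment over 11162 genes: 21 were higher in KO DP and 8 lower. Over all genes 7.89% were called, 2.86% higher and 5.03% lower. With a peak, 17 of 65 rose and 8 fell; without any peak, 4 of 19 rose (Tnfrsf4, Tnfrsf25, Il17re and Tnfsf13b) and none fell. The median log2 difference was -0.38 over all genes and -0.00 over the members, and changes are best read against that shift of all genes. By role, 6 of 26 tested interleukin receptors rose and 5 fell, 5 of 13 chemokine receptors rose and 1 fell, 3 of 7 interleukins rose and 1 fell (Il6st, a receptor chain by function), 3 of 7 TNF ligands and 2 of 11 chemokines rose, and 2 of 14 TNF receptors rose and 1 fell. With median-ratio scaling, 25 members were higher and 11 lower, and over all genes 1027 were higher and 984 lower in place of 319 and 562. All 29 had the same sign within titles 34 to 37 and within titles 738 to 741. The 29 were called on these same libraries, so this agreement is no independent support, and its rate over all called genes was not counted. Within the first range 4 of the 21 and 0 of the 8 were called; within the second, 19 and 7.

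Il1r2 had the largest rise, with 32.2, 59.6, 32.1 and 15.2 FPKM in KO DP, 0.975 and 0.939 in KO SP, against 0.0810, 0.775, 0 and 0 in WT SP. Every KO DP library was far above the rest (log2 difference to WT SP 4.78 ± 0.37, limma adjusted p = 1.89e-05). Ccr6, whose first-intron peak was missing from the KO lists, had 24.3, 36.3, 18.3 and 15.3 FPKM in KO DP, 6.03 and 7.87 in KO SP, against 1.02, 0.820, 0.174 and 1.43 in WT SP. The 3 groups did not overlap, and KO SP lay between the others. The log2 difference of KO DP to WT SP was 3.70 ± 0.32 (adjusted p = 5.08e-05); that of KO SP to WT SP was not called (adjusted p = 0.108), but was with median-ratio scaling (log2 difference 1.97, adjusted p = 0.0322).

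Of the 13 chemokine receptors tested, Ccr4, Ccr8, Cxcr5 and Ccr1 also rose and Ccr7 fell. Ccr4, of Th2 and skin-homing cells, had 4.26, 10.9, 9.41 and 4.08 FPKM in KO DP, 0.774 and 1.18 in KO SP, against 0.375, 0.0899, 0.110 and 0.135 in WT SP. Ccr8 had 31.2, 39.8, 17.6 and 12.5 in KO DP, 3.67 and 3.32 in KO SP, against 3.97, 1.17, 2.35 and 1.24 in WT SP. In both genes the KO DP libraries lay above all others (log2 differences to WT SP 2.69 ± 0.31 and 2.996 ± 0.39, adjusted p = 0.000399 and 0.000985). Cxcr5 had 29.3, 45.6, 17.8 and 11 in KO DP, 12.0 and 14.3 in KO SP, against 8.32, 6.57, 5.09 and 4.53 in WT SP (1.77 ± 0.39, adjusted p = 0.0196). Ccr1, an inflammatory chemokine receptor, also rose (2.82 ± 0.35, adjusted p = 0.000746), with 1 weak peak in WT replicate 2 as its only peak. Ccr7 fell, with 27.3, 19.8, 12.5 and 9.72 FPKM in KO DP, 188 and 227 in KO SP, against 230, 95.4, 289 and 247 in WT SP. KO DP stood apart below both other groups (log2 difference to WT SP -3.55 ± 0.40, adjusted p = 0.000399). Cxcr3, Cxcr4 and Cxcr6 were not called: the mean of Cxcr3 was 245 ± 119 FPKM in KO DP, against 273 ± 63.3 in WT SP (SD, n = 4 each).

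**Figure D4:**
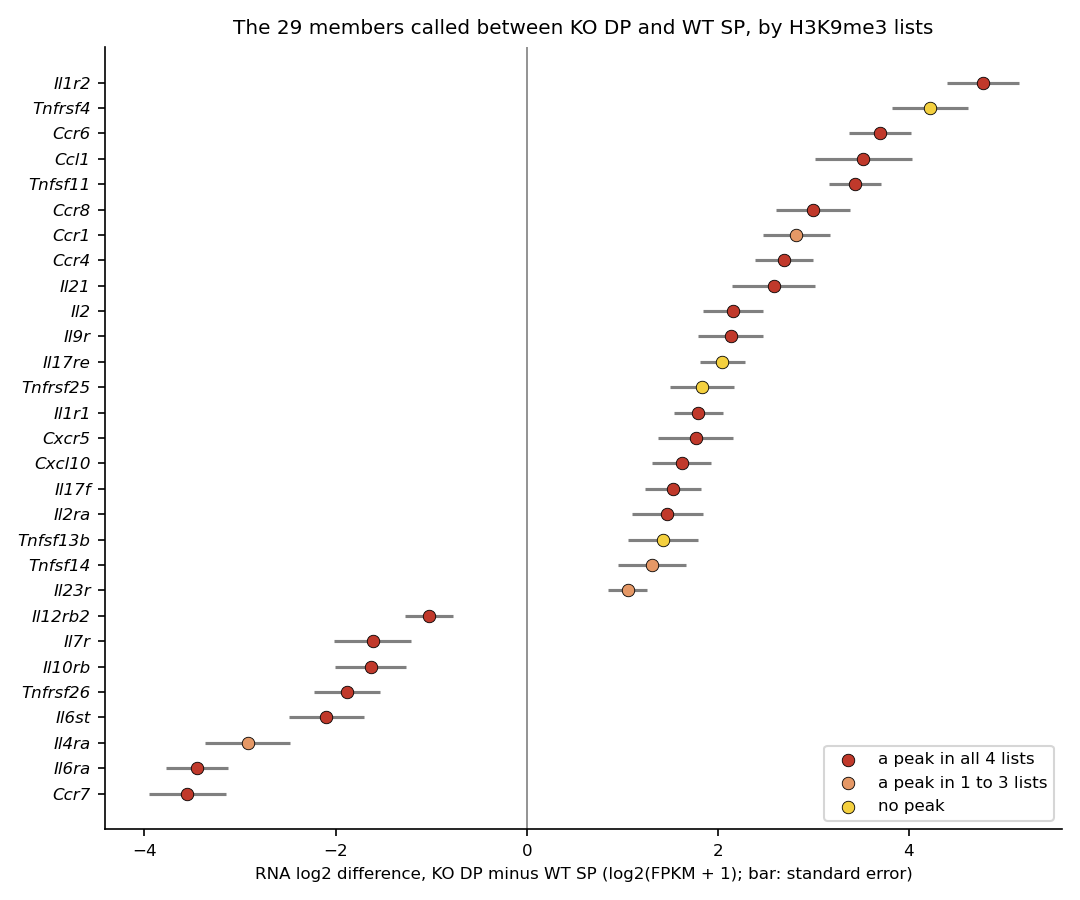
RNA log2 differences of KO DP minus WT SP for the 29 called members, with standard errors, coloured by the number of H3K9me3 lists with a peak near the gene. Genes with a peak in all 4 lists stand on both sides (Il1r2 at 4.78, Ccr7 at -3.55), and the 4 without a peak are all on the higher side; the points of Il17f and Il23r depend on the pseudocount, since both are listed at 0 in WT SP.

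Among receptors of interleukins, Il2ra (6.99, 7.65, 2.31 and 2.12 FPKM in KO DP, 2 and 1.06 in KO SP, 0.611, 1.69, 0.529 and 0.810 in WT SP) rose by a log2 difference of 1.47 ± 0.37 (adjusted p = 0.0346). That call was kept in 9 of 18 alternatives (log2 difference 0.95 to 2.16, adjusted p up to 0.135). Il9r rose to 5.57, 10.4, 4.21 and 2.14 FPKM in KO DP, against 0.304, 0.242, 0.246 and 0.627 in WT SP (2.13 ± 0.34, adjusted p = 0.00333), and Il1r1 by 1.80 ± 0.26 (adjusted p = 0.00186). Il23r had 1.03, 1.73, 0.676 and 1.02 FPKM in KO DP and 0.316 and 0.412 in KO SP, and each WT SP library listed it at 0 (adjusted p = 0.00966). Il6ra, Il6st, Il4ra, Il7r, Il10rb and Il12rb2, each a chain of an interleukin receptor, fell, whereas Il10ra, Il12rb1 and Il2rg were not called (adjusted p = 0.827, 0.355 and 0.403). Il6ra had 1.46, 1.63, 0.940 and 0.929 FPKM in KO DP, 6.09 and 13.3 in KO SP, against 31.6, 13.6, 27.2 and 24.8 in WT SP, so that KO SP lay between the other groups (-3.45 ± 0.32, adjusted p = 8.72e-05).

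Il4ra had 16.3, 9.50, 4.18 and 3.66 FPKM in KO DP, 39.7 and 54.9 in KO SP, against 63.3, 33.7, 98.4 and 63.9 in WT SP (-2.92 ± 0.45, adjusted p = 0.00268). Il6st, the gp130 chain shared by the IL-6 family, fell by 2.10 ± 0.39 on the log2 scale (adjusted p = 0.00870), Il10rb by 1.63 ± 0.37 (adjusted p = 0.0226), Il7r by 1.61 ± 0.40 (adjusted p = 0.0318) and Il12rb2 by 1.03 ± 0.25 (adjusted p = 0.0302). The falls of Il7r and Il12rb2 were called in 8 and 7 of 18 alternatives, with a log2 difference of Il7r from -2.46 to -0.76 and an adjusted p of up to 0.532. Il12rb2 was no longer called after median-ratio scaling (log2 difference -0.68, adjusted p = 0.125). Il2rb had a strong upstream region in every list and a nearer one missing from both KO lists, and was not called. It had 424, 400, 170 and 81.7 FPKM in KO DP and 268 and 317 in KO SP. WT SP had 383, 802, 416 and 391, with overlap. Il3ra had 1.61, 3.09, 1.5 and 0.490 FPKM in KO DP, against 3.10, 5.93, 3.43 and 2.98 in WT SP; the adjusted p was 0.0955, and 0.0422 with the replicate number as a block. The mean of Ifngr1 was 173 ± 59.6 FPKM in KO DP, against 304 ± 76.2 in WT SP (SD, n = 4 each; limma adjusted p = 0.126).

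Among the cytokines, Il21 had 4.65, 19.1, 3.86 and 2.80 FPKM in KO DP, 0.0968 and 0.0895 in KO SP, against 0.0965, 0.437, 0.0247 and 0 in WT SP (2.59 ± 0.43, adjusted p = 0.00467). Il2, the T cell growth factor, had 6.27, 6.59, 3.17 and 1.84 in KO DP, 0.903 and 1.10 in KO SP, against 0.312, 0, 0.240 and 0 in WT SP (2.16 ± 0.31, adjusted p = 0.00188). Both rose in 4 of 4 KO DP libraries. Il17f had 0.699, 3.63, 2.07 and 1.90 FPKM in KO DP and each WT SP library listed it at 0 (adjusted p = 0.00997). Il10 had 1.90, 8.96, 0.212 and 0.309 FPKM in KO DP, against 0, 0.506, 0.0322 and 0 in WT SP; its adjusted p was 0.171, and 0.0150 with the replicate number as a block.

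Ifng had 63.5, 76.7, 22 and 15.4 FPKM in KO DP, 18.3 and 8.83 in KO SP, against 7.17, 121, 3.64 and 12.3 in WT SP, where replicate 2 stood above all other libraries (adjusted p = 0.349). Il4 had 0.617, 0.1, 0.860 and 0.893 FPKM in KO DP and was listed at 0 in KO SP and WT SP; with Il13, Il9, Il5, Il3, Il6, Il17a and Il22 it fell under the 0.5 FPKM filter and was not tested. Ccl1, the ligand of CCR8, rose to 15.6, 38.3, 9.95 and 5.97 FPKM in KO DP, against 1.84, 0, 0 and 0 in WT SP (3.52 ± 0.51, adjusted p = 0.00186). Cxcl10 rose by 1.62 ± 0.31 (adjusted p = 0.00916). Ccl3 and Ccl5 were not called; Ccl3 had 64.4, 119, 9.39 and 6.64 FPKM in KO DP, against 3.70, 203, 1.88 and 3.2 in WT SP.

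TNF family members that rose were Tnfsf11, Tnfsf14 (LIGHT) and Tnfsf13b (BAFF) among the ligands, and Tnfrsf4 and Tnfrsf25 among the receptors. Tnfsf14 was called in 7 of 18 alternatives and Tnfsf13b in 9 (adjusted p up to 0.146 and 0.123), against 18 for Tnfsf11. Tnfsf11 had 16.7, 17.8, 11.1 and 7.73 FPKM in KO DP, 0.738 and 0.695 in KO SP, against 0.409, 0.274, 0.210 and 0.171 in WT SP (3.44 ± 0.27, adjusted p = 2.11e-05). Tnfrsf4, the costimulatory receptor OX40 and a gene without any peak, had 83.6, 134, 56.2 and 49.5 FPKM in KO DP, 2.98 and 3.37 in KO SP, against 2.23, 7.52, 2.16 and 2.12 in WT SP (4.22 ± 0.40, adjusted p = 9.33e-05). Both stood apart in 4 of 4 KO DP libraries, 1 with peaks in every list and the other with none. Tnfrsf26 fell, by 1.88 ± 0.35 on the log2 scale (adjusted p = 0.00838). Tnfsf8, Tnfrsf9 and Tnfrsf18 were not called.

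**Figure D5:**
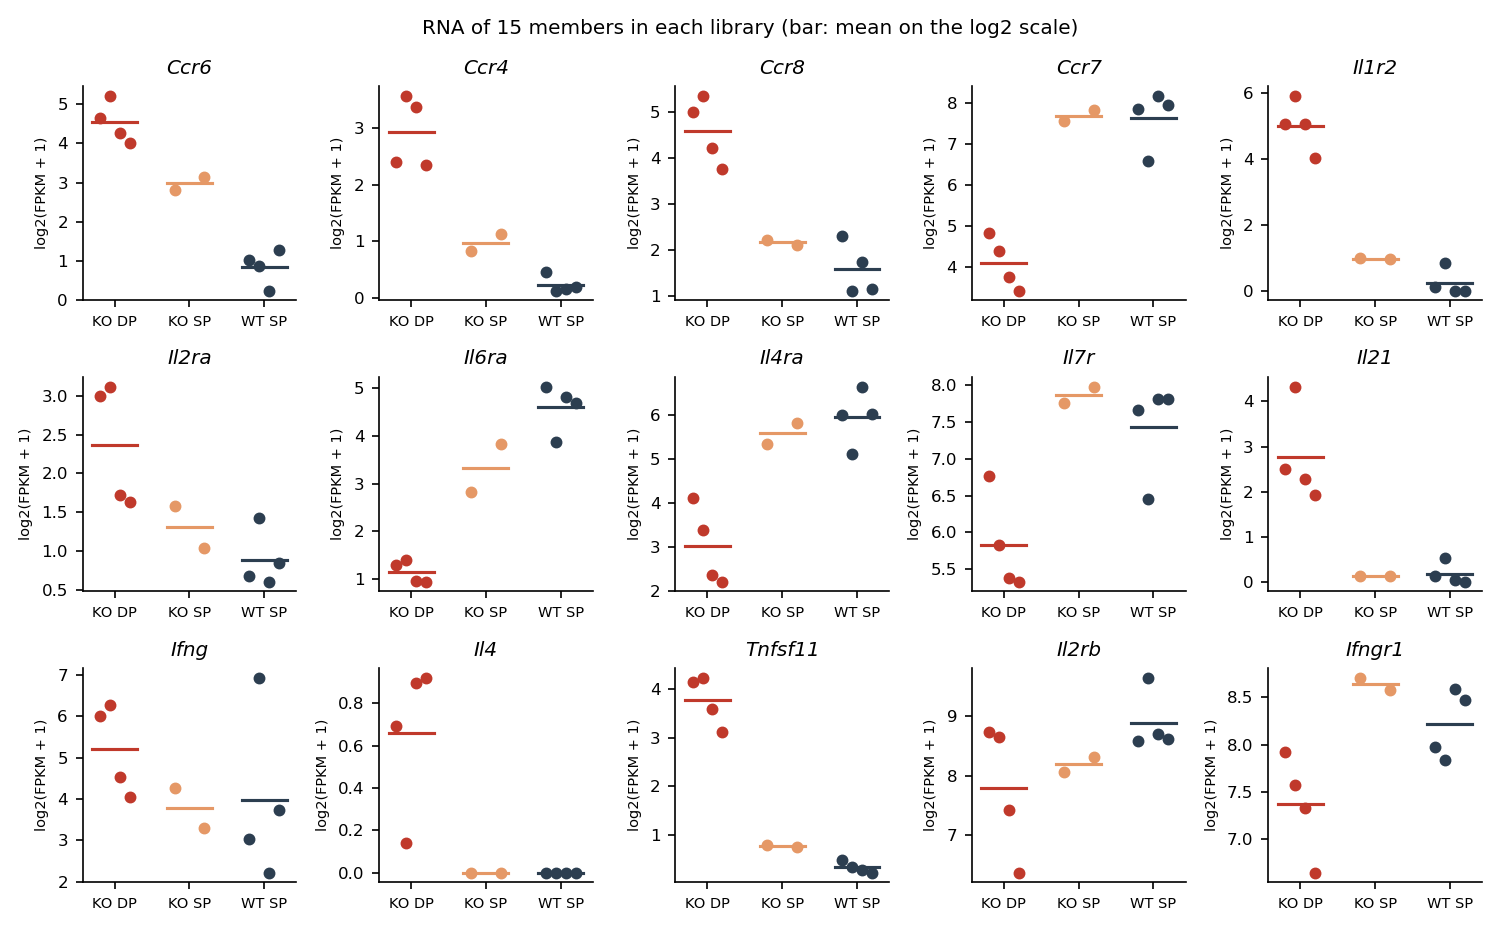
RNA of 15 members as log2(FPKM + 1) in each library of KO DP (red), KO SP (orange) and WT SP (dark blue), with the group mean on that scale as a bar. KO DP lies above both other groups for Ccr6, Ccr4, Ccr8, Il1r2, Il2ra, Il21 and Tnfsf11 and below both for Ccr7, Il6ra and Il4ra, and Il2rb, Ifngr1 and Ifng overlap between KO DP and WT SP.

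KO SP cells (CD4-CD8+ G9a KO) did not differ from WT SP in any member after adjustment by limma (0 of 84; 0.116% of all genes called, 0.0717% higher and 0.0448% lower). At an unadjusted p under 0.05 there were 8 members (9.52%), 6 higher and 2 lower, against 3.44% of all genes. KO DP cells differed from KO SP cells in 13 members, 9 higher and 4 lower (2.07% of all genes called, 0.421% higher and 1.65% lower). The 9 were Tnfrsf4, Il1r2, Ccl1, Tnfsf11, Il21, Ccr8, Ccr1, Ccr4 and Il9r, and the 4 were Ccr7, Il4ra, Il6ra and Tnfrsf26. Log2 differences of KO DP to KO SP were 4.18 ± 0.49 for Tnfrsf4, 4.04 ± 0.46 for Il1r2, 2.996 ± 0.33 for Tnfsf11 and -3.60 ± 0.49 for Ccr7 (adjusted p = 0.00147, 0.00110, 0.00110 and 0.00379). KO DP replicates 3 and 4 and the KO SP libraries share the title numbers 738 and 739, while the description numbers pair other libraries. The KO DP libraries titled 34 and 35 with KO SP, blocked by description number, gave 0 called members. Those titled 738 and 739 with KO SP, blocked by title number, gave 49. Each of these fits used 4 libraries and left 1 residual degree of freedom. They differ in their KO DP libraries as well as in the block, and these cannot be told apart. With no filter on low values 5 members were called. For these fits, and those with a library left out, no count over all genes is given here. This contrast shares the KO DP libraries with that to WT SP, so the 2 sets of genes are not independent. It rests on few libraries: without either KO SP library 3 members were called, without KO DP replicate 2 there were 8, and without KO DP replicate 3 there were 6. With median-ratio scaling 26 were called, and over all genes 272 higher and 388 lower in place of 47 and 184.

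The peaks were placed beside the RNA calls. Of the 21 genes that were higher in KO DP than in WT SP, 17 had a peak and 14 had one in all lists; all 8 of the lower genes had a peak, 7 of them in all lists; of the 55 tested and not called, 40 had a peak and 31 had one in all lists. Shared regions near the higher genes (14) had a median score log2 difference between KO and WT of -0.32, those near the lower genes (11) one of 0.03, and those near genes not called (49) one of -0.39. The ranges overlapped, from -1.01 to 1.09, from -1.72 to 0.62 and from -2.46 to 0.70.

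Cytokine, receptor and signalling genes whose symbols fall outside the naming rule, 40 in number, served for comparison (Tnf, Lta, Csf, Tgfb, Fas, Jak, Stat and Socs genes and others). Of these, 29 had a peak and 18 had one in all lists, with 77 and 86 peaks in KO and 81 and 63 in WT. In RNA, 36 were tested between KO DP and WT SP, and 3 rose (Cd40lg, Csf2 and Ebi3) and 1 fell (Socs3). Cd40lg, the helper ligand for B cells and antigen-presenting cells, rose by a log2 difference of 4.08 (adjusted p = 1.6e-05).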

How the data were processed

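RNA-seq FPKM values came from 10 libraries and H3K9me3 peak lists from 4, one list per library. Per the submitters' processing notes, TopHat and Cufflinks (RNA) and Bowtie and HOMER (ChIP) were used with mm9; the sources used here state neither the step each tool did nor its version. The FPKM values were used as deposited by the authors, and the deposited peak score of each peak is the authors' own; how scores were scaled is not stated. SMART-Seq v4 and Nextera kits, named in the labels, keep no strand, so overlapping genes cannot be separated. Read depth is unknown from FPKM, so no counting interval is given.

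Of 23700 RNA lines, 466 repeats of a symbol were summed, leaving 23234 symbols. The 11162 genes averaging 0.5 FPKM or more were fitted with limma 3.58.1 (R 4.3.3) on log2(FPKM + 1) over 3 groups with 7 residual degrees of freedom; fold changes understate low genes. Calls have a Benjamini-Hochberg adjusted p under 0.05. Peaks per gene were fitted as log2(peaks per 10000 list peaks + 0.5) for genes with at least 8 peaks. Peaks overlapping by 1 bp were joined into regions, and log2 scores of regions in all 4 lists were centred per library and fitted with limma, a step chosen after seeing the data. Tables and exact permutation tests, all two-sided, used Python 3.11.15. Each fit was tested on simulated data. Peak coordinates are mm9; promoter sequences are RefSeq GRCm38.p6, for 98 of 124 genes with a peak.

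The members and gene lists were chosen with earlier results of these data known. Named were a set list of 38 T cell cytokines and receptors (1 is not reported here), the 10 genes with most peaks and the 10 with the highest mean percentile, the highest peak of each list, genes with peaks in 1 genotype only or within 1 kb of the start, and members with a peak called in RNA (the 10 largest each way). Cxcl10, Cxcl13, Cxcl14, Ifnar2, Il12a, Il17re, Il1r1, Il20ra, Il2rg, Tnfrsf8, Tnfrsf19, Tnfrsf25, Tnfsf13b, Il10ra, Il12rb1, Ccl2, Ccl7, Ccl8, Ccl12 and, of the block's gains, Tnfsf4 and Tnfsf9 were named after their values were seen. P-values measure the spread between libraries, which may be technical. Deviations of KO DP and WT SP libraries with the same description number correlated weakly (0.119, 0.293, 0.111 and 0.103). Such libraries also share a title range, so these values cannot tell pairing by number from a shared range. Whether the number pairs them was not tested. A fit with that number as a block is given as an alternative where it changes a call. Alternatives covered scaling, filter, pseudocount, offset, overlap, block and left-out libraries. The 4 inputs were not analysed here.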

Additional observations from a re-analysis of the deposited data

Results flagged for a closer look

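Among 75 groups of 4 libraries checked over 42 named genes, 8 held 1 library that stood far from the rest, its gap to the nearest other taking up nearly the whole range of the group (Dixon's criterion); chance gives about 1 in 20 groups. All 8 were in WT SP, 7 of them in replicate 2. In that library Il10 had 0.506 FPKM (0 to 0.0322 in the other WT SP libraries), Il1r2 had 0.775 (0 to 0.0810), Il2rb had 802 (383 to 416) and Il7r had 86.3 (202 to 225). It also had 203 FPKM of Ccl3 (1.88 to 3.70), 7.52 of Tnfrsf4 (2.12 to 2.23) and 118 of Tnfrsf9 (5.23 to 7.24). Ccl1 had 1.84 FPKM in WT SP replicate 1 and was listed at 0 in the others. WT SP replicate 2 also had the highest myeloid marker sum of its group (130 FPKM) and the highest dendritic sum (37.4 FPKM); their part in these values was not tested. Without it, limma called 34 members between KO DP and WT SP in place of 29. The count over all genes in that fit is not given here.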

How the results depend on the processing

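Between KO DP and WT SP, 29 members were called by limma; the count was 4 with titles 34 to 37 only (73 of all genes, against 881), 51 with titles 738 to 741 only (3878), 22 to 34 with 1 library left out, and 29 to 36 under the other settings. All genes called numbered 2011 with median-ratio scaling and 2123 with the title range as a block. The replicate block gave 34 members and 1375 genes. Il10, Il3ra, Ccl8, Tnfsf4 and Tnfsf9 were gained and no called member was lost. These gains rest on a pairing by description number that was not tested. Between KO SP and WT SP the count of 0 became 1 with median-ratio scaling (Ccr6) and 1 with a pseudocount of 0.1 (Il17re), and stayed 0 with the replicate block. Between KO DP and KO SP the 13 members became 26 with scaling, 5 with no filter on low values, 0 with the replicate block by description number and 49 with the replicate block by title number; with 1 library left out they were 3 to 17. In these contrasts, libraries with the same description number had correlations from -0.110 to 0.054, and that number is not taken to pair them. KO DP and KO SP libraries with the same title number had 0.143 and 0.091, near most values for KO DP and WT SP. Whether the title number pairs them was not tested, so both counts are given. The 2 blocked fits of KO DP and KO SP also used different KO DP libraries, titled 34 and 35 or 738 and 739. Each used 4 libraries and left 1 residual degree of freedom. Member counts given here without a count over all genes are not set against a background. For peaks per gene, 0 members became 1 with at least 1 peak required, and 0 to 41 with 1 library left out; the replicate block gave 0 members (70 genes) and the crossed numbers 0 (85 genes), with a correlation of -0.203 between same-numbered libraries. Each peaks-per-gene fit with 1 library left out keeps a lone library in its genotype and 1 residual degree of freedom. That lone library is assumed to vary as those of the other genotype do. The member counts of these fits rest on that assumption, stand without a count over all genes, and are not read as a result. No member region was called under 9 alternatives of the shared-region fit. The KO minus WT difference in median percentile, -3.14, became 0.714 within 100 kb, and -8.49 to 2.21 with 1 library left out (1.03 without KO replicate 2); with the replicate block the exact p was 1. The share of the list stayed negative (-0.487 to -0.163). The members' gap to other peaks ran from 16.0 to 23.2 percentile points and from 8.98 to 13.5 points of LTR share. Called members changed sign in no alternative; over all called genes and settings 253 values kept their call and 57 lost it, and with 1 library left out 331 kept it and 89 lost it. The cause of these changes was not tested. RNA depth is not known from FPKM, and 2 libraries per genotype limit the ChIP comparisons to an exact p of 0.333 or above.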
